A study of Mus musculus with 8 samples.

Results

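Oligodendrocyte progenitor cells, called OPCs here, are the dividing glial precursors that persist in the young and adult brain. They carry the platelet-derived growth factor receptor Pdgfra and the membrane proteoglycan NG2, encoded by Cspg4, and they receive synapse-like input from neurons through glutamate and GABA receptors. When an OPC commits to differentiation it passes through a committed precursor stage (COP), marked by genes such as Gpr17, Bcas1 and Enpp6, before it becomes a myelinating oligodendrocyte (ODC) that expresses Mbp and Mobp.

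The nuclei came from the hippocampus of wild-type C57BL/6J male pups at postnatal day 21. The dams were 8 weeks old by the labels and received a diet with 2 mg/kg folic acid (MF) or 20 mg/kg folic acid (HF) for 2 weeks before mating and then through pregnancy and lactation. Each diet had 2 libraries, named MF1, MF2, HF1 and HF2, and each library gave RNA and open chromatin (ATAC) from the same nuclei. The study calls the libraries of a diet biological replicates, but the labels and methods do not say how many pups or which litters went into each.

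Of 14297 nuclei in the files, 11518 were retained, those with 1000 to 70000 ATAC counts, a mitochondrial UMI share below 2% and between 500 and 7000 genes. Of these, 418 were taken as OPC nuclei. The MF libraries gave 96 and 86 of them and the HF libraries 124 and 112. They were chosen by their own RNA, so the RNA values of the rule genes describe the choice and support nothing. A member had a UMI (a unique RNA molecule) of at least 3 of the 8 genes Pdgfra, Cspg4, C1ql1, Lhfpl3, Cacng4, Stk32a, Emid1 and Tmem255b, with Pdgfra or Cspg4 among them. A member also had UMIs of fewer than 2 of the 4 committed-stage genes Bmp4, Enpp6, Bcas1 and Gpr17, at most 1 UMI of the neuronal genes Slc17a7 and Gad2 together, and at most 1 UMI of Mog, Csf1r and Aqp4 together. The median OPC nucleus held 3172 UMIs of 1754 genes and 15080.5 ATAC counts. Of the 418 member barcodes, 4 also occurred in another library, and 0 were shared between members.

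At the edges of the rule, 30 members had exactly 3 of the 8 markers, and 17 nuclei that met all other conditions had 2. None of the committed-stage genes was detected in 168 members, and 1 of them was detected in 250, while 179 nuclei just outside had 2. Another 20 nuclei were just outside with 2 neuronal UMIs, at a median of 7574.5 UMIs per nucleus. Of the members, 39 (9.33%) had a Scrublet doublet score over 0.05.

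For comparison, 4 other classes were formed from nuclei outside the OPC set by their own markers (1 nucleus that also met the AST-like rule was kept as OPC only, and 11 that met 2 other rules were left out): 478 COP-like nuclei with at least 2 of the 4 committed-stage genes, 769 ODC-like, 1133 AST-like (astrocyte) and 785 MG-like (microglia) nuclei, besides 2575 EXC-like (excitatory neuron) nuclei. The COP-like class was not free of progenitor genes, since 223 of its nuclei (46.7%) also had 3 or more of the 8 OPC markers with Pdgfra or Cspg4. The ODC-like, AST-like, MG-like and EXC-like rules allowed at most 1 UMI of Pdgfra and Cspg4 together.

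Regions of open chromatin differed between OPC nuclei and the other classes, and 6 of them are shown here as sequence because the accessibility results below turn on them. Each is the central 300 bases of a region that carried a peak in all 4 libraries, on the plus strand of GRCm38 (mm10), read from the RefSeq GRCm38.p6 genome. Capitals mark matches on either strand to ACAATG or ACAAAG, the core of sites bound by SOX factors, to the E-box CAGCTG, and to TGCCAA, the core of sites bound by nuclear factor I (NFI). The first is the region with the smallest p among those more open in OPC than in ODC-like nuclei, between genes at chr2:146710792-146711091. The second is another of the 5 strongest of that kind, in an exon of Sh3bp4 at chr1:89137179-89137478. The third is from the region over the start of Neu4, at chr1:94020182-94020481. The fourth and the fifth lie in introns of Tns3, at chr11:8638113-8638412, and Sirt2, at chr7:28783952-28784251, and were almost closed in OPC nuclei but open in COP-like and ODC-like nuclei. The sixth is from the region over the start of Mobp, a myelin gene, at chr9:120149381-120149680, where no count was found in any OPC library.
Chr2 region, open in OPC: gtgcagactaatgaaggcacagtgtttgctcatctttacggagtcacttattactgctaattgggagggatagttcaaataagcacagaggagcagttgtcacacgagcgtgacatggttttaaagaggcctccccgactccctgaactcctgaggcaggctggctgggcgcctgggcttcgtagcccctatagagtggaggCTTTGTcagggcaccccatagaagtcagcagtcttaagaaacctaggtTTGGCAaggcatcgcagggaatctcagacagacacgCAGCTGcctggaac
Sh3bp4 region, open in OPC: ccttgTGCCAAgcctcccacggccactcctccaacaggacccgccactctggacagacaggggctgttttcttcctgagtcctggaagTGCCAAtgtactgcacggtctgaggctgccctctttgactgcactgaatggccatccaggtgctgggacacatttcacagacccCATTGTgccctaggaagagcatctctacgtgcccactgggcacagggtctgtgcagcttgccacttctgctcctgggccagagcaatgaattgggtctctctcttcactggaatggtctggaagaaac
Neu4 start: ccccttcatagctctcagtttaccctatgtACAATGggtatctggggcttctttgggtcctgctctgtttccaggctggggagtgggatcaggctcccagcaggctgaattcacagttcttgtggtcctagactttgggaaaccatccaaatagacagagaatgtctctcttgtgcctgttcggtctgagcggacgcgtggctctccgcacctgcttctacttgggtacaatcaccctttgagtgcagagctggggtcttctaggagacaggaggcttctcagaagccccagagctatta
Tns3 intron, closed in OPC: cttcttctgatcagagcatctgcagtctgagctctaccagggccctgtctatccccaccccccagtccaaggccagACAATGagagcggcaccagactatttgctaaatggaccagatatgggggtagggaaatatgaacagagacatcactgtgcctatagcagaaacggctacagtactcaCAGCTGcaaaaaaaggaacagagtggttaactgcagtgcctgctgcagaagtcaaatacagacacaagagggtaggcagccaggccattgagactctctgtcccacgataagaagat
Sirt2 intron, closed in OPC: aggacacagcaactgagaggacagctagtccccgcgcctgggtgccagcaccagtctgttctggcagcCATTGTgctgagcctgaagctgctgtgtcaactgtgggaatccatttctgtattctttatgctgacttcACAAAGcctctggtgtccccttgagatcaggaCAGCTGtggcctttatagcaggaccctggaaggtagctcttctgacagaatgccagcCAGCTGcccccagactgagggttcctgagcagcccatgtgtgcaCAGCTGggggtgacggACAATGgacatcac
Mobp start, closed in OPC: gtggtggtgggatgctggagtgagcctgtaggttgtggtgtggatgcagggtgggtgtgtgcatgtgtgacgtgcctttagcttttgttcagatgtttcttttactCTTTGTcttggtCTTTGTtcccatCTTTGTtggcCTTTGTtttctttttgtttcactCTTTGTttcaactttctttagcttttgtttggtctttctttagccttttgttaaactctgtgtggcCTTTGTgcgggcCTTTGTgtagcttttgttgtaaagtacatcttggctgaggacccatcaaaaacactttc
The chr2 window held 1 SOX match, 1 E-box and 1 NFI motif. The Sh3bp4 window held 1 SOX match and 2 NFI motifs. The Tns3 window held 1 SOX match and 1 E-box, and the Sirt2 window 3 SOX matches and 3 E-boxes, and both were without an NFI motif. The Mobp window held 7 matches to ACAAAG and 0 NFI motifs, and the Neu4 window 1 SOX match and 0 NFI motifs. The NFI motif did not separate open from closed windows in general. Among the 5 strongest regions more open than in ODC-like nuclei, the Brinp1 and Pik3r1 windows held 0 and the Fhit window 1. Among the 5 strongest less open, windows in an intron of Pola2 and between genes near Cd180 held 1 and 2.

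The rule genes were detected to different degrees. Lhfpl3, a transmembrane protein gene, had a UMI in 99.8% of OPC nuclei, Pdgfra in 92.6%, Cspg4 in 76.3% and C1ql1, which encodes a secreted synaptic C1q-like protein, in 58.4%. In MG-like nuclei, which should lack these genes and had a median of 1835 UMIs, the share was 2.80% for Lhfpl3, 0.764% for Pdgfra and 0.637% for Cspg4. The MG-like rule capped Pdgfra and Cspg4 together at 1 UMI, so their shares were held low by the choice of nuclei. The median number of the 8 markers detected per nucleus was 6 in each MF library and 5 in each HF library, and the median UMIs per OPC nucleus were 3400.5, 3368, 3123.5 and 2969.5 for MF1, MF2, HF1 and HF2.

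The label was checked with genes outside the rule. The transcription factor Sox6, which keeps precursors undifferentiated, had a UMI in 98.3% of members and the matrix glycoprotein Tnr in 99.0%, while the lineage factors Olig1, Sox10 and Olig2 were detected in 61.7%, 58.1% and 40.2%. Markers of other cells were sparse for choroid plexus, vascular cells and microglia. Of the choroid plexus list (12 genes), 8 genes were at 0 in all OPC libraries and none had a UMI in all 4. Of the vascular list (13 genes), 5 were at 0, and in the microglia list (11 genes) Tmem119 and Ptprc were at 0. Neuronal RNA was more widespread, with 198 members holding UMIs of 3 or more of the 12 excitatory neuron genes, and the summed level of that list ranged from 2014 to 2273 CPM (a gene's UMIs scaled to the UMI total of the class in a library, in the usual depth-normalised unit) over the 4 libraries. This neuronal sum was not particular to OPC nuclei. It was 1530 to 2182 CPM in COP-like, 1817 to 2242 CPM in ODC-like, 1734 to 2011 CPM in AST-like and 2059 to 3451 CPM in MG-like nuclei. UMIs of 3 or more of the 14 astrocyte genes were in 150 members, of the 10 inhibitory neuron genes in 41, of the 10 haemoglobin and erythroid genes in 113 and of the 28 myelin genes in 317. The myelin gene Mbp was at 106 to 237 CPM in OPC nuclei, within the 80.6 to 311 CPM of AST-like nuclei. Mbp had a UMI in 42.1% of OPC nuclei, against 26.2% of AST-like nuclei with a median of 2812 UMIs and 24.6% of MG-like nuclei.

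The RNA of OPC nuclei was next set beside that of the later stages, as a description without a test because all classes were chosen on RNA. Pdgfra was at 908, 767, 767 and 651 CPM in OPC nuclei of MF1, MF2, HF1 and HF2, at 193 to 325 CPM in COP-like nuclei and at 0 to 1.87 CPM in ODC-like nuclei. These Pdgfra levels were partly set by the rules, which required Pdgfra or Cspg4 in OPC and capped both in ODC-like nuclei. The receptor-type phosphatase Ptprz1, outside the rule, was at 2815 to 3073 CPM in OPC nuclei and at 1179 to 1562 CPM in COP-like nuclei, without overlap between the classes. Other progenitor genes were as high or higher in COP-like nuclei. Sox6 was at 1630 to 2055 CPM in OPC and 1868 to 2436 CPM in COP-like nuclei, which overlap, and it was at 59.0 to 94.0 CPM in ODC-like nuclei. Tnr was at 2203 to 2897 CPM in OPC and higher, at 4306 to 5695 CPM, in COP-like nuclei. Vcan, which encodes the matrix proteoglycan versican, overlapped between OPC (817 to 1011 CPM) and COP-like nuclei (763 to 985 CPM).

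Genes of the differentiation programme were low in OPC nuclei. Tcf7l2, a Wnt pathway factor that peaks in newly forming oligodendrocytes, was at 115, 117, 91.0 and 96.8 CPM in OPC nuclei and at 997 to 1384 CPM in COP-like nuclei. Myrf, the master regulator of myelin genes, was at 2.28 to 7.26 CPM in OPC nuclei against 73.0 to 81.0 CPM in COP-like and 90.1 to 135 CPM in ODC-like nuclei. Tns3 and Itpr2, both known from early differentiating cells, were at 198 to 253 CPM and 378 to 527 CPM in OPC nuclei, below 1132 to 1469 CPM and 1164 to 1539 CPM in COP-like nuclei. Within the members, Tcf7l2 was at 41.0 to 112 CPM in nuclei with none of the committed-stage genes and at 86.2 to 178 CPM in nuclei with 1, so the ranges overlapped. In the 223 COP-like nuclei that also met the OPC marker condition, Tcf7l2 was at 124 to 425 CPM, and in the rest of the COP-like class at 1506 to 2317 CPM.

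**Figure D1:**
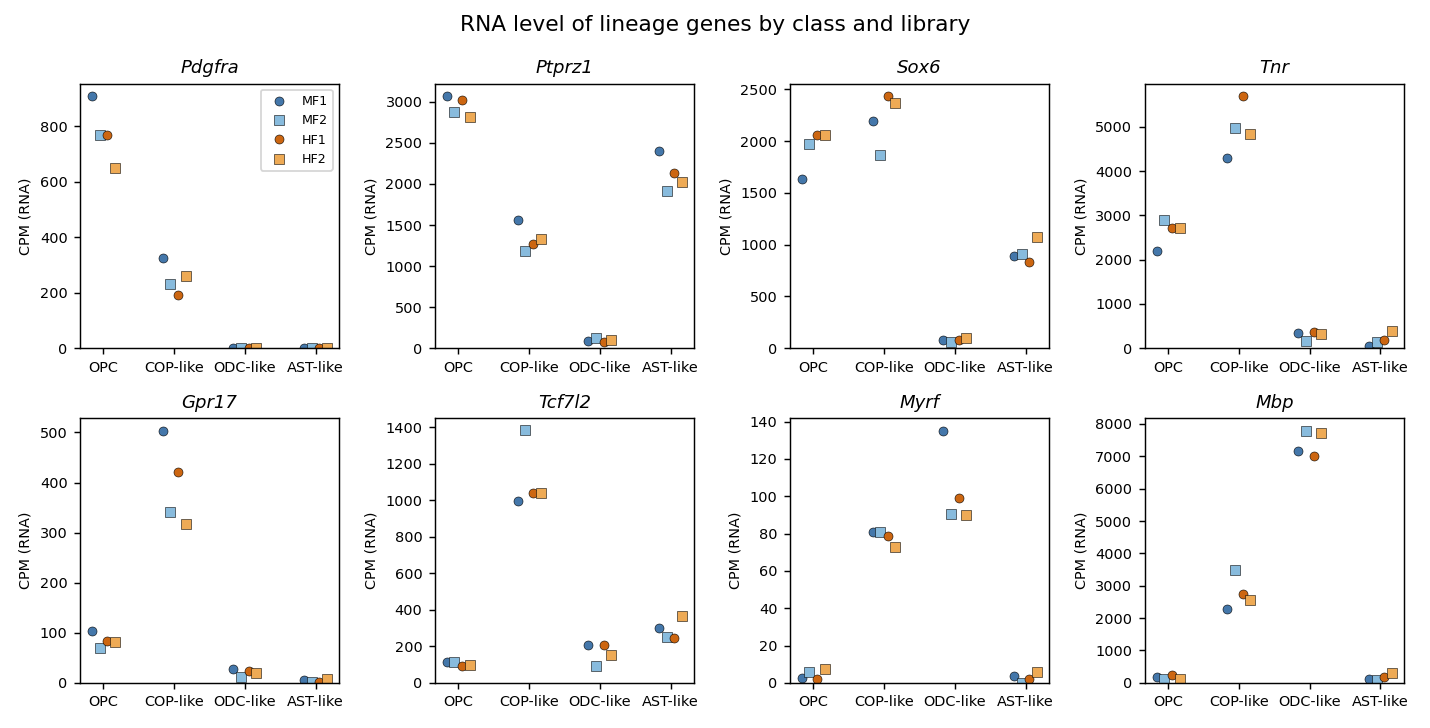
RNA level in CPM (vertical axes, linear) of 8 lineage genes in OPC, COP-like, ODC-like and AST-like nuclei, with 1 point for each of the 4 libraries. Pdgfra and Ptprz1 were highest in OPC among the oligodendrocyte stages, Sox6 stayed high in COP-like nuclei, Tnr and Tcf7l2 were highest in COP-like nuclei, and Mbp was highest in ODC-like nuclei, at 6994 to 7786 CPM. The order of Pdgfra was partly set by the class rules.

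Among genes outside the rule with at least 50 CPM in every OPC library (3005 genes), 170 were higher in each OPC library than in any library of the 5 other classes. The first 15 by the ratio of the lowest OPC library to the highest other library included Rbms3, an RNA-binding protein gene, at 273, 329, 323 and 298 CPM against at most 118 CPM elsewhere. Zeb1, a zinc finger repressor, was at 1420 to 1636 CPM against at most 765 CPM. Xylt1 and Chst11, which encode enzymes of chondroitin sulphate synthesis, were at 1411 to 1801 CPM against at most 765 CPM and at 527 to 576 CPM against at most 273 CPM. The potassium channel gene Kcnk10 was at 166 to 208 CPM against at most 95.8 CPM, and the zinc finger gene Myt1 at 278 to 351 CPM against at most 169 CPM. The protocadherin gene Pcdh15 was at 3270 to 3936 CPM against at most 1905 CPM. For each of these genes the highest other library was a COP-like one. The other 8 of the 15 were Plpp4, Mir9-3hg, Lnx1, Scfd2, Adam12, Galnt3, Vstm2b and Kcnip1.

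Receptors and channels through which cells sense neuronal activity were looked at as lists. The summed level of the glutamate receptor list (24 genes) was 13070 to 15553 CPM in OPC nuclei, 11371 to 13986 CPM in COP-like and 6326 to 8739 CPM in ODC-like nuclei. EXC-like nuclei were higher, at 17647 to 21006 CPM. MG-like nuclei, which should hold little of this RNA, were at 2884 to 8432 CPM for the same list. The sum of the GABA receptor list (14 genes) was 1980 to 2419 CPM in OPC, 931 to 1817 CPM in COP-like and 928 to 1463 CPM in ODC-like nuclei, while AST-like and EXC-like nuclei were higher, at 4715 to 6033 CPM and 4825 to 5533 CPM. MG-like nuclei were at 898 to 2296 CPM for the GABA receptor list, which overlaps the OPC range. The voltage-gated channel list (35 genes) summed to 11957 to 14590 CPM in OPC nuclei, to 7006 to 11179 CPM in COP-like nuclei, to 4280 to 11515 CPM in MG-like nuclei and to 23763 to 26996 CPM in EXC-like nuclei. Kcnd2, a subunit of A-type potassium channels, was at 4473, 5273, 4818 and 5569 CPM in OPC nuclei and at 1885 to 2977 CPM in COP-like nuclei. Grin3a, an NMDA receptor subunit, was at 457 to 591 CPM in OPC, 230 to 361 CPM in COP-like and 13.1 to 31.4 CPM in ODC-like nuclei. Neuronal RNA was present in members, as given above, and its part in these sums was not tested.

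Accessibility was not used to choose the members, so OPC nuclei were tested against other classes in the ATAC counts, with library as a block in edgeR's quasi-likelihood test. Against ODC-like nuclei, 8556 of 40382 regions (21.2%) were more open and 8836 (21.9%) less open in OPC nuclei at a false discovery rate (FDR) under 0.05. Against AST-like nuclei the numbers were 8181 (21.3%) and 9551 (24.9%) of 38333. Against COP-like nuclei they were 1479 (4.42%) and 2501 (7.48%) of 33433. By DESeq2 the numbers against COP-like nuclei were 677 and 1702, and without HF1 they were 821 and 1813 in edgeR, so the more open set was the less stable. The classes differ in nuclei and depth, and no difference between these counts was tested.

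The starts of OPC genes were looked at first. Of the 20 genes made up of the 8 rule markers and the 12 label-check genes, 19 had a region with a peak in all 4 libraries within 1 kb of a start, 24 regions in all. These genes were chosen on RNA, and Tmem255b was the gene without a region. Of the 24 regions, 20 were more open in OPC than in ODC-like nuclei and 1 was less open, against 21.2% and 21.9% of all regions. Against AST-like nuclei 20 of 23 were more open, against 21.3% of all regions. Against COP-like nuclei 1 of 24 was more open, that of Cspg4, against 4.42% of all regions, and 1 was less open, at Sox10. The Cspg4 region also spans an annotated start of Odf3l1.

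At the start of Cspg4 the ATAC CPM (counts scaled to the total of the class in regions with a peak in all libraries) were 35.9, 31.1, 31.7 and 21.8 in OPC nuclei, 10.6 to 20.1 in COP-like, 2.17 to 5.08 in ODC-like and 9.66 to 11.4 in AST-like nuclei. OPC stood above every other class in every library, with a log2 difference of 0.77 (SE 0.252, FDR 0.0316) against COP-like and 3.16 (SE 0.339, FDR 2.01e-10) against ODC-like nuclei by edgeR. The call against COP-like nuclei was lost when MF1, MF2 or HF1 was left out and with DESeq2.
The start of Neu4, a sialidase gene, was at 52.5 to 64.0 ATAC CPM in OPC and 64.6 to 83.9 in COP-like nuclei, and at 0.784 to 8.23 and 0.268 to 1.21 in ODC-like and AST-like nuclei. Its log2 difference was 3.68 (SE 0.274) against ODC-like and 6.52 (SE 0.347) against AST-like nuclei. The start of Pdgfra was at 31.2, 21.4, 23.1 and 21.2 ATAC CPM in OPC nuclei, at 11 to 19.5 in ODC-like and at 13.2 to 16.6 in AST-like nuclei, and the log2 difference against ODC-like nuclei was 0.52 (SE 0.266, FDR 0.115). This region, at 75155839 to 75156729 of chromosome 5, holds an annotated transcript start inside the gene, which begins at 75152292. The difference from AST-like nuclei (log2 0.62, FDR 0.0497) lost its call in each alternative fit.

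Genes used by the whole oligodendrocyte lineage came next. The start of Olig2 was at 68.7 to 89.7 ATAC CPM in OPC, 69.3 to 79.5 in COP-like, 48.0 to 55.6 in ODC-like and 15.3 to 34.6 in AST-like nuclei. The first Sox10 region was at 31.2 to 47.2 in OPC and 0.537 to 1.86 in AST-like nuclei, and the second, 91 bases from the annotated start, was lower in OPC (25.7 to 35.0) than in COP-like nuclei (39.6 to 64.9). The Sox10 difference in the second region was -0.70 on the log2 scale (SE 0.183, FDR 0.00508).

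Genes of the committed and myelinating stages differed in how open their starts were in OPC nuclei. The start of Gpr17, a receptor whose RNA was kept low by the rule, was at 112, 157, 108 and 121 ATAC CPM in OPC and 132 to 156 in COP-like nuclei, and these ranges overlapped (log2 -0.25, SE 0.104, FDR 0.115). Gpr17 was less open in ODC-like nuclei, at 55.6 to 70.0, and nearly closed in AST-like nuclei, at 0 to 1.94. The start of Bmp4, a secreted growth factor gene, was at 3.89 to 9.36 in OPC and 9.28 to 30.4 in COP-like nuclei, with a log2 difference of -1.90 (SE 0.360, FDR 7.37e-05). The start of Enpp6 was at 0 to 0.648 in OPC, 4.04 to 6.51 in COP-like and 7.32 to 9.60 in ODC-like nuclei. At the Mobp start no count was found in any OPC library, where 3 counts over the 4 libraries would be 0.497 ATAC CPM, against 6.81 to 9.08 in COP-like and 59.6 to 81.9 in ODC-like nuclei. The Mbp start was at 0 to 5.18 ATAC CPM in OPC nuclei and at 81.4 to 95.7 in ODC-like nuclei.

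**Figure D2:**
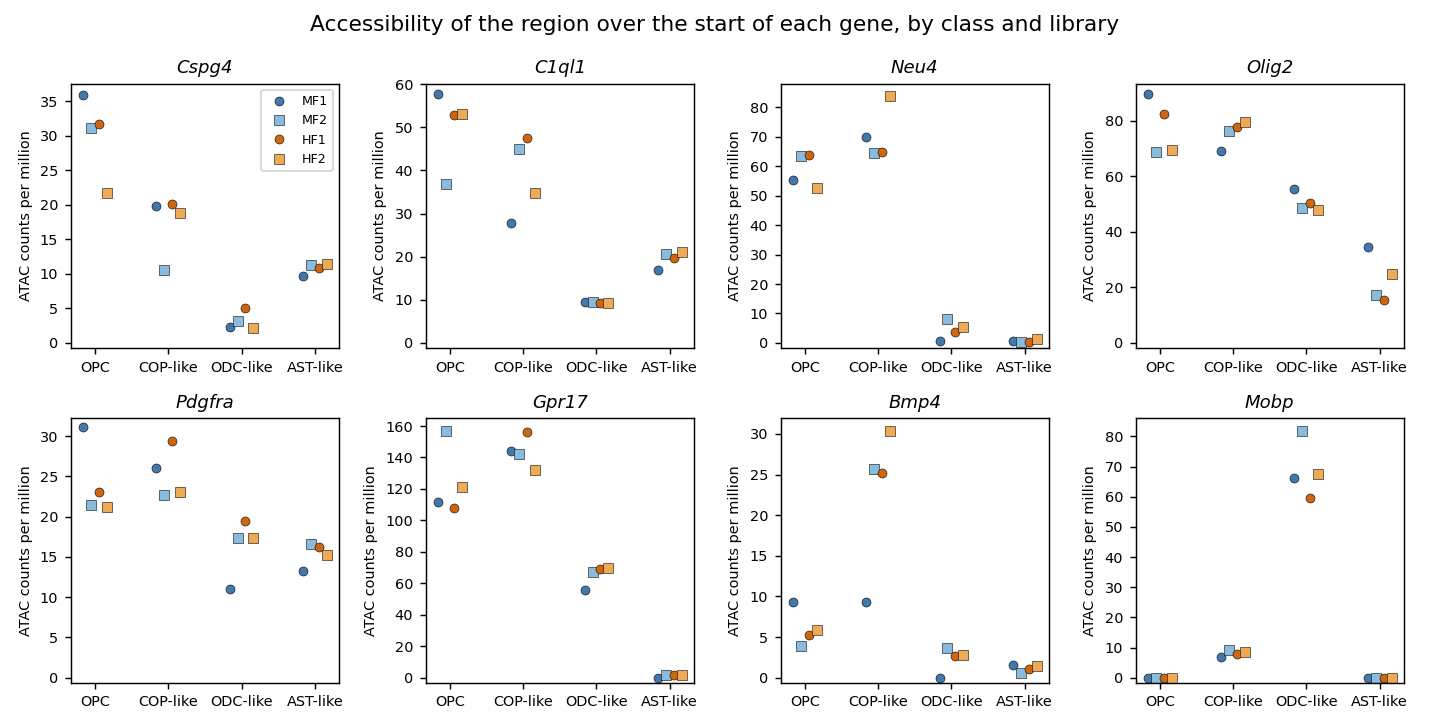
ATAC CPM, on the vertical axes (linear), in the region over the start of 8 genes, in OPC, COP-like, ODC-like and AST-like nuclei, with 1 point for each library. Cspg4, whose region also spans a start of Odf3l1, was highest in OPC. Gpr17 was open in both OPC and COP-like nuclei, and Mobp had 0 counts in every OPC library.

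The regions with the smallest p more open in OPC than in ODC-like nuclei were not at gene starts. The chr2 region shown above, in full chr2:146710467-146711417 and 144447 bases from the nearest annotated start, that of Kiz, was at 95.9, 101, 95 and 82.5 ATAC CPM in OPC nuclei. It was at 46.4 to 60.0 in COP-like, 0.457 to 1.24 in ODC-like and 3.54 to 9.66 in AST-like nuclei, and the log2 difference from ODC-like nuclei was 6.77 (SE 0.271). The other 4 of the 5 smallest p-values lay in an intron of Brinp1, the exon of Sh3bp4, between genes near Pik3r1 and in an intron of Fhit, with log2 differences of 3.96, 4.46, 4.48 and 6.22. A region 35570 bases from the start of Olig1 was at 116 to 164 in OPC, 104 to 128 in COP-like, 61.7 to 84.9 in ODC-like and 2.54 to 6.80 in AST-like nuclei. An exon region of Myt1, one of the OPC-high RNA genes, was at 82.5 to 112 in OPC, 76.6 to 94.8 in COP-like, 7.43 to 13.7 in ODC-like and 0 to 1.46 in AST-like nuclei. Against COP-like nuclei the chr2, Brinp1 and Fhit regions were also called (log2 0.73, 0.59 and 0.49). The Sh3bp4, Pik3r1, Olig1 and Myt1 regions were not.

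Among the 5 regions with the smallest p less open in OPC than in COP-like nuclei were those of Sirt2, Tns3 and Epb41l2. The Sirt2 intron region, in a deacetylase gene, was at 3.12, 6.48, 3.30 and 2.36 ATAC CPM in OPC and 42.1 to 66.1 in COP-like nuclei, and at 56.4 to 63.6 in ODC-like nuclei. An intron region of Tns3 was at 1.98 to 7.80 in OPC and 48.3 to 86.0 in COP-like nuclei. An exon region of Epb41l2 was at 1.18 to 5.18 in OPC and 25.3 to 54.0 in COP-like nuclei, and at 4.28 to 8.69 in ODC-like nuclei, so it was highest in the committed stage. Their log2 differences between OPC and COP-like nuclei were -3.87 (SE 0.286) at Sirt2, -3.83 (SE 0.273) at Tns3 and -4.22 (SE 0.343) at Epb41l2. The strongest region more open in OPC, in an intron of Thada, was at 53.0, 67.4, 85.8 and 85.5 in OPC and 16.0 to 33.3 in COP-like nuclei, with a log2 difference of 1.58 (SE 0.182).

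Regions within 1 kb of a gene start made up 38.8% of all regions tested against COP-like nuclei, 18.9% of those more open in OPC and 11.4% of those less open. Introns held 24.7%, 30.6% and 45.1% of these sets, and 26.8%, 42.8% and 31.2% lay between genes. Against ODC-like nuclei the share near starts was 33.3% of all regions, 26.7% of those more open and 20.8% of those less open in OPC.

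Short motifs were counted in the central 300 bases of each region, on both strands, as a description without a test. The NFI motif TGCCAA was found in 34.3% of the regions more open in OPC than in COP-like nuclei, in 21.0% of those less open and in 19.2% of all tested. The SOX-type motif ACAATG ran the other way, in 12.2% of the regions more open in OPC, 24.7% of those less open and 11.4% of all. The E-box CAGCTG was in 31.4%, 42.5% and 26.8%, and the second SOX-type motif ACAAAG in 26.3%, 33.4% and 20.6%. Against ODC-like nuclei TGCCAA was in 27.5% of the regions more open in OPC, 19.9% of those less open and 19.7% of all, and ACAATG in 10.2%, 28.4% and 14.3%. ACAAAG was in 22.4%, 33.7% and 22.7%, CATATG in 2.82%, 4.17% and 3.18%, and the AP-1 motif TGANTCA in 8.11%, 12.6% and 8.01%. G and C made up 55.1% of the windows more open in OPC than in COP-like nuclei, 51.2% of those less open and 57.6% of all. Against ODC-like nuclei they made up 56.2%, 53.7% and 56.3%. The part of base composition in the motif shares was not tested. Because gene starts are rich in G and C, the shares were also counted outside them. There TGCCAA was in 38.7% of the regions more open in OPC than in COP-like nuclei, 22.3% of those less open and 25.3% of all, and ACAATG in 13.8%, 26.4% and 15.2%. CAGCTG was there in 33.2% of the regions more open in OPC, 45.1% of those less open and 32.9% of all, and ACAAAG in 28.6%, 35.5% and 27.1%. The direction of the NFI motif was not general to OPC, since against AST-like nuclei it was in 22.4% of the regions more open in OPC and in 34.4% of those less open. The RNA of Nfia, which encodes an NFI factor, was at 918 to 1054 CPM in OPC, 515 to 758 CPM in COP-like, 464 to 566 CPM in ODC-like and 1934 to 2632 CPM in AST-like nuclei. A match is a stretch of letters, not a measured binding site.

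**Figure D3:**
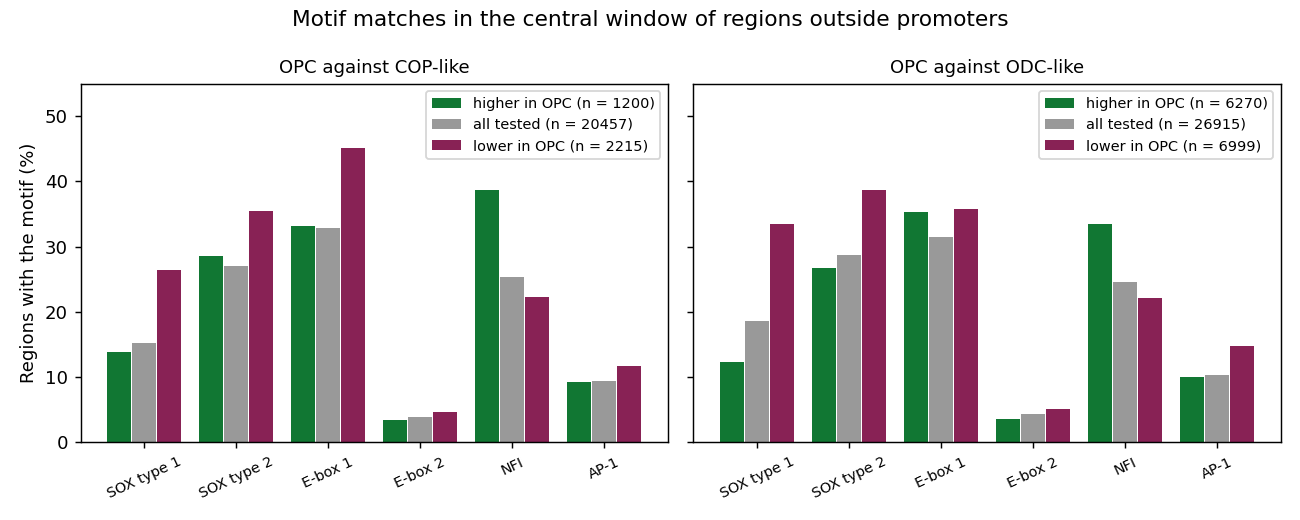
Share of regions outside promoters (vertical axis, percent) whose central 300 bases hold each motif, for regions more open in OPC, all regions tested and regions less open in OPC, against COP-like (left) and ODC-like nuclei (right). With SOX type 1 as ACAATG, SOX type 2 as ACAAAG, E-box 1 as CAGCTG and E-box 2 as CATATG, the NFI motif was most frequent in regions more open in OPC, at 38.7% against COP-like nuclei, and both SOX-type motifs in regions less open.

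Maternal diet was not part of the rule. OPC nuclei made up 3.31% and 3.82% of retained nuclei in MF1 and MF2 and 3.57% and 3.87% in HF1 and HF2, and the groups overlapped. The means were 3.57% ± 0.362 (SD, n = 2) in MF and 3.72% ± 0.209 (SD, n = 2) in HF, a difference of 0.151 percentage points (exact two-sided permutation test, p = 0.667). With 2 libraries a group this exact test cannot reach 0.05. For 100 OPC nuclei there were 127 and 119 COP-like nuclei in MF and 123 and 91.1 in HF (difference -16.0, exact permutation p = 0.667).

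Dividing nuclei were counted as those with UMIs of at least 3 of 15 mitosis genes, such as the proliferation marker Mki67, the topoisomerase Top2a and the kinetochore gene Cenpf. In OPC nuclei these were 4 of 96 (4.17%, 95% Clopper-Pearson interval 1.15 to 10.3%) in MF1, 3 of 86 (3.49%, 0.725 to 9.86%) in MF2, 16 of 124 (12.9%, 7.56 to 20.1%) in HF1 and 11 of 112 (9.82%, 5.01 to 16.9%) in HF2. Both HF libraries were above both MF libraries, while the intervals, which cover counting error only, overlapped between diets. The means were 3.83% ± 0.480 (SD, n = 2) and 11.4% ± 2.18 (SD, n = 2), a difference of 7.53 percentage points at the smallest p that the exact permutation test allows with 2 libraries a group, or an adjusted exact permutation p of 0.667 over the 3 shares and ratios tested. Thinned to 2000 UMIs per nucleus, which left out 40 shallower members, the shares were 3.41%, 3.75%, 10.5% and 9.38%. They were 3.45%, 3.95%, 12.2% and 9.90% without nuclei over the doublet score, and 4.26%, 3.75%, 11.4% and 8.00% with at least 4 of 8 markers required, both settings chosen after seeing the data. In all other retained nuclei the shares were 0.892%, 1.25%, 1.25% and 0.826%. Among these, COP-like nuclei held 13 dividing nuclei, and their shares of 2.46% (MF1), 0.980% (MF2), 3.95% (HF1) and 2.94% (HF2) stood in the same order as those of OPC nuclei. After thinning the COP-like shares were 2.52%, 1.02%, 2.70% and 1.06%, and the diets overlapped. No test of a difference between the classes was made.

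Nuclei with 3 or more of 16 DNA replication genes made up 12.5% and 8.14% of OPC nuclei in MF and 18.5% and 8.04% in HF, and the groups overlapped.

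Over all libraries 34 of 418 OPC nuclei (8.13%, 5.70 to 11.2%) were mitotic by this count. The interval pools the nuclei and leaves out the spread between libraries, whose shares ran from 3.49% to 12.9%. In COP-like nuclei the count was 13 of 478 (2.72%) and in ODC-like nuclei 7 of 769 (0.910%). After thinning the shares in OPC, COP-like and ODC-like nuclei were 7.14%, 1.96% and 0.264%. The 34 nuclei had a median of 4441 UMIs against 3139 in the other members, and 4 of them had a doublet score over 0.05. Of the 34, 24 also had 3 or more replication genes, against 27 of the other 384. Pdgfra was at 735 CPM in the mitotic members and 774 CPM in the others, and Sox10 at 144 and 270 CPM. The thymidylate synthase gene Tyms, which uses folate to make thymidine for DNA, was at 82.9 CPM (15 UMIs) in the mitotic members and 17.9 CPM (25 UMIs) in the others.

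**Figure D4:**
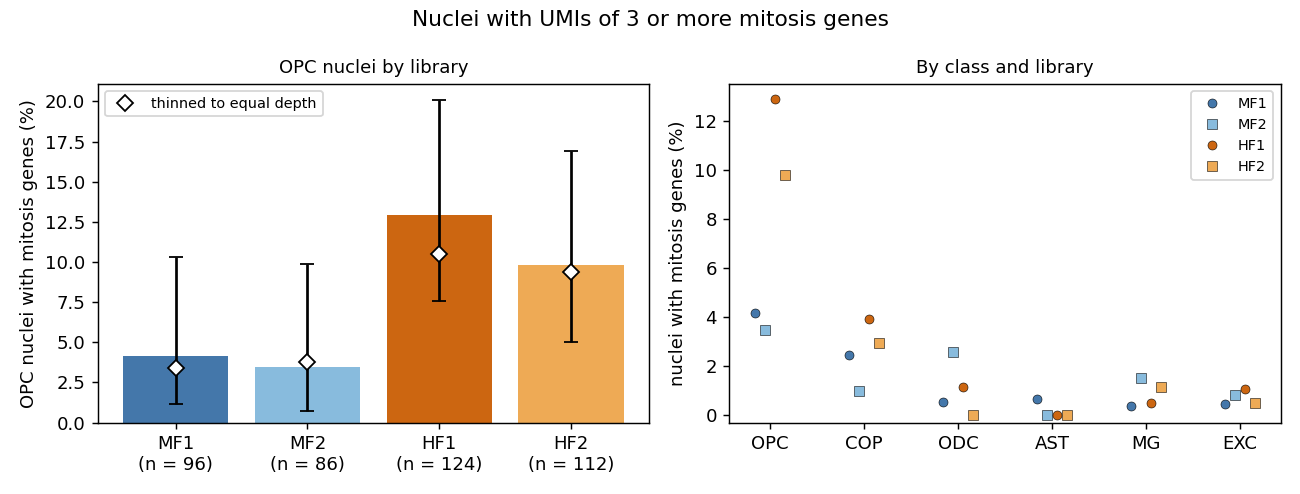
Share of nuclei (vertical axes, percent) with UMIs of 3 or more mitosis genes. The left panel gives OPC nuclei by library as bars with 95% Clopper-Pearson intervals and, as diamonds, the shares after thinning to 2000 UMIs, and the right panel gives every class with 1 point per library. The HF libraries were at 12.9% and 9.82% in OPC nuclei and the MF libraries at 4.17% and 3.49%.

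Diet effects on genes were tested on UMI sums over OPC nuclei per library. Of 6772 genes that passed a filter on low counts, 1 (0.0148%) was called at an FDR under 0.05 and at least 1.2-fold, 161 (2.38%) had an unadjusted p under 0.05, and in 880 (13.0%) both HF libraries were above both MF libraries. A gene could pass through the libraries of 1 diet alone, and the filter then partly sets its direction. Among the genes named below, Hs3st4, Grm3, Neil3, Tfrc, Brip1, Nusap1, Cenpf, Anln and Tyms passed through HF in this way. Mrpl48 and Mthfd1 passed through MF. The called gene was Hs3st4, a heparan sulfate sulfotransferase gene on chromosome 7, at 123982869 to 124398989 in GRCm38. It had 6, 6, 44 and 75 UMIs in MF1, MF2, HF1 and HF2, or 16.1, 17.2, 100 and 182 CPM, and a log2 difference of 3.08 (SE 0.441, edgeR FDR 0.0313). Only 26 of 418 nuclei held these UMIs. In HF2, 61 of 75 were in 1 nucleus with 17732 UMIs in all, and in HF1, 36 of 44 were in 1 nucleus. Without the highest nucleus of each library the UMIs were 4, 3, 8 and 14. With at least 4 of 8 markers required they were 5, 3, 8 and 67, and without nuclei over the doublet score 3, 3, 8 and 69, and in both cases Hs3st4 no longer passed the filter and no gene was called. With the replicate number as a block Hs3st4 was tested and no gene was called. In EXC-like nuclei Hs3st4 was at 757, 991, 824 and 1079 CPM, and in AST-like and MG-like nuclei it ranged from 11.2 to 213 CPM and 15.8 to 412 CPM. In COP-like nuclei Hs3st4 was at 35.7 and 45.2 CPM in MF and 10.4 and 187 CPM in HF, so the groups overlapped. In ODC-like nuclei it was at 4.68 and 98.3 CPM in MF and 158 and 145 CPM in HF, without overlap. The part of neuronal RNA in the OPC values of Hs3st4 was not tested.

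The next genes by p did not pass the FDR. Grm3, a metabotropic glutamate receptor gene, was at 21.4 and 14.3 CPM in MF and 50.1 and 148 CPM in HF (log2 2.46, SE 0.549, FDR 0.506), and in AST-like nuclei it was at 1089 to 1471 CPM. Ptgds, which encodes prostaglandin D synthase, was at 10.7 and 34.4 CPM in MF and 382 and 38.7 CPM in HF, and 139 of its 200 UMIs came from 1 nucleus of HF1. Neil3, a DNA repair glycosylase gene, was at 13.4 and 8.59 CPM in MF and 61.4 and 33.9 CPM in HF. Mrpl48, a mitochondrial ribosomal protein gene, was at 77.6 and 54.4 CPM in MF and 22.8 and 12.1 CPM in HF (log2 -1.89, SE 0.441, FDR 0.566).

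Haemoglobin RNA was highest in MF1 in every class, and in OPC nuclei most of it came from 1 nucleus. In EXC-like nuclei the haemoglobin and erythroid list summed to 791 CPM in MF1 and 222 to 317 CPM in the other libraries. The OPC sums held 6561 haemoglobin UMIs in MF1 and 180, 180 and 159 in MF2, HF1 and HF2. In MF1 the median member held 7 haemoglobin UMIs, against 2, 1 and 1 in the others. Of the 6561, 5875 (89.5%) were in 1 nucleus, where they made up 64.6% of its 9090 UMIs and which carried 7 of the 8 OPC markers. Without the 2 nuclei over 1% haemoglobin the MF1 level was 1762 CPM in place of 17564 CPM, against 515, 410 and 385 CPM in the other libraries. Hba-a1, Hba-a2, Hbb-bs and Hbb-bt had the 4 smallest p-values among genes lower in HF, and none passed the FDR.

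Over all 15 mitosis genes, whether or not they passed the filter, the summed level in OPC nuclei was 418 and 255 CPM in MF and 662 and 615 CPM in HF, so both HF libraries were above both MF libraries. Of the 15, 11 passed the filter and 0 were called. Several of the 11, such as Cenpf, Nusap1 and Anln, had few UMIs in MF and passed through the HF libraries. The directions of those that passed are thus partly set by the filter and are not counted here. These genes are counted in the same few nuclei, so they are not independent of each other or of the shares above. Top2a was at 58.9 and 25.8 CPM in MF and 123 and 126 CPM in HF (log2 1.55, SE 0.357, FDR 0.558). Cenpf was at 13.4 and 8.59 CPM in MF and 47.8 and 41.1 CPM in HF (log2 1.99, SE 0.535). Knl1, another kinetochore gene, was at 37.5 and 17.2 CPM in MF and 72.8 and 58.1 CPM in HF (log2 1.25, SE 0.417). Nusap1 and Anln, which act in spindle assembly and cell division, had log2 differences of 1.68 (SE 0.678) and 1.91 (SE 0.670). In MF1, MF2, HF1 and HF2 Nusap1 had 1, 7, 18 and 13 UMIs and Anln 3, 3, 12 and 15. Mki67 was at 64.3 and 31.5 CPM in MF and 61.4 and 43.6 CPM in HF, so the groups overlapped (log2 0.14, SE 0.400).

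The summed level of the 16 DNA replication genes was 324 and 286 CPM in MF and 644 and 356 CPM in HF, again over all members. Of these, 4 passed the filter and 0 were called. Pola1, a DNA polymerase subunit, was at 142 and 152 CPM in MF and 307 and 172 CPM in HF, and Brip1, a helicase, at 24.1 and 8.59 CPM in MF and 45.5 and 31.5 CPM in HF.

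Folate metabolism was of interest because the diets differed in folic acid. Of 39 folate and one-carbon genes 14 passed the filter, 7 had a difference above 0, 6 below 0 and 0 were called, with a median log2 difference of 0.015. Tyms was at 8.03, 11.5, 41.0 and 36.3 CPM (log2 1.97, SE 0.588), with UMIs in 31 nuclei. Mthfd1, which interconverts folate one-carbon units, was at 45.5 and 40.1 CPM in MF and 22.8 and 19.4 CPM in HF (log2 -1.0, SE 0.451). In 4 of the 14 (28.6%) the groups did not overlap, Tyms higher in HF and Mthfd1, Ggh and Mtr lower, against 27.6% of all genes, and none of the 4 passed the FDR. The filter partly set these directions and counts. Tyms had 3, 4, 18 and 15 UMIs in MF1, MF2, HF1 and HF2 and passed through HF. Mthfd1 had 17, 14, 10 and 8 and passed through MF. Mat2a, which makes the methyl donor S-adenosylmethionine, was at 109 to 158 CPM with a log2 difference of 0.19 (SE 0.280). Of 15 DNA methylation genes 11 passed the filter and 0 were called, with 6 above and 5 below 0. Dnmt3a was at 107 and 88.7 CPM in MF and 95.6 and 145 CPM in HF, and Dnmt1 at 32.1, 17.2, 27.3 and 26.6 CPM.

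Lineage and signalling genes were looked at in the same sums, with genes of the rule left out of every list. Of 20 lineage transcription factors tested 13 were above and 7 below 0, with a median of 0.05, and 0 were called. Sox4 was at 99.1 and 126 CPM in MF and 50.1 and 77.5 CPM in HF (log2 -0.81, SE 0.332). Sox10 had a log2 difference of 0.07 (SE 0.260) and Olig2 of -0.19 (SE 0.331). Of 13 growth factor and signalling receptors 5 were above and 8 below 0. Notch1, a receptor that holds precursors back from differentiating, was at 115 and 65.8 CPM in MF and 59.2 and 43.6 CPM in HF (log2 -0.80, SE 0.351), and Erbb4, a neuregulin receptor, had a log2 difference of -0.03 (SE 0.293). Of 28 matrix and adhesion genes 16 were above and 11 below 0, among them Tnr at 0.10 (SE 0.284) and Ptprz1 at -0.02 (SE 0.270). None of the members of these lists was called.

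Among genes of neuronal input, 20 glutamate receptor genes were tested with a median log2 difference of 0.035, 13 GABA receptor genes with -0.14 and 30 voltage-gated channel genes with -0.01, and 0 were called. Cacna2d3, a calcium channel subunit, was at 380 and 518 CPM in MF and 287 and 290 CPM in HF (log2 -0.63, SE 0.271). Kcnd2 had a log2 difference of 0.10 (SE 0.283) and Gria2, an AMPA receptor subunit, of 0.00 (SE 0.270). Of 13 differentiation genes 4 were above and 9 below 0, and Tcf7l2 had a log2 difference of -0.30 (SE 0.284). Of 13 myelin genes 9 were above and 4 below 0, with the connexin gene Gjc3 at 134 and 132 CPM in MF and 86.5 and 58.1 CPM in HF (log2 -0.86, SE 0.298).

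Genes of other cell types were followed in the same sums. Of 5 haemoglobin and erythroid genes tested 4 were below 0, and the transferrin receptor gene Tfrc, which many cell types use, was at 13.4 and 14.3 CPM in MF and 52.3 and 36.3 CPM in HF (log2 1.67, SE 0.510). Of 9 excitatory neuron genes 5 were above and 4 below 0, of 4 inhibitory neuron genes 2 and 2, of 5 astrocyte genes 2 and 2, and of 2 microglia genes 1 and 1. The interneuron peptide gene Sst was at 50.9 and 28.6 CPM in MF and 77.4 and 62.9 CPM in HF (log2 0.82, SE 0.374). No choroid plexus or vascular gene passed the filter, and their summed levels were highest in HF1, at 150 and 63.7 CPM, against at most 8.59 and 14.3 CPM in the other libraries.

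**Figure D5:**
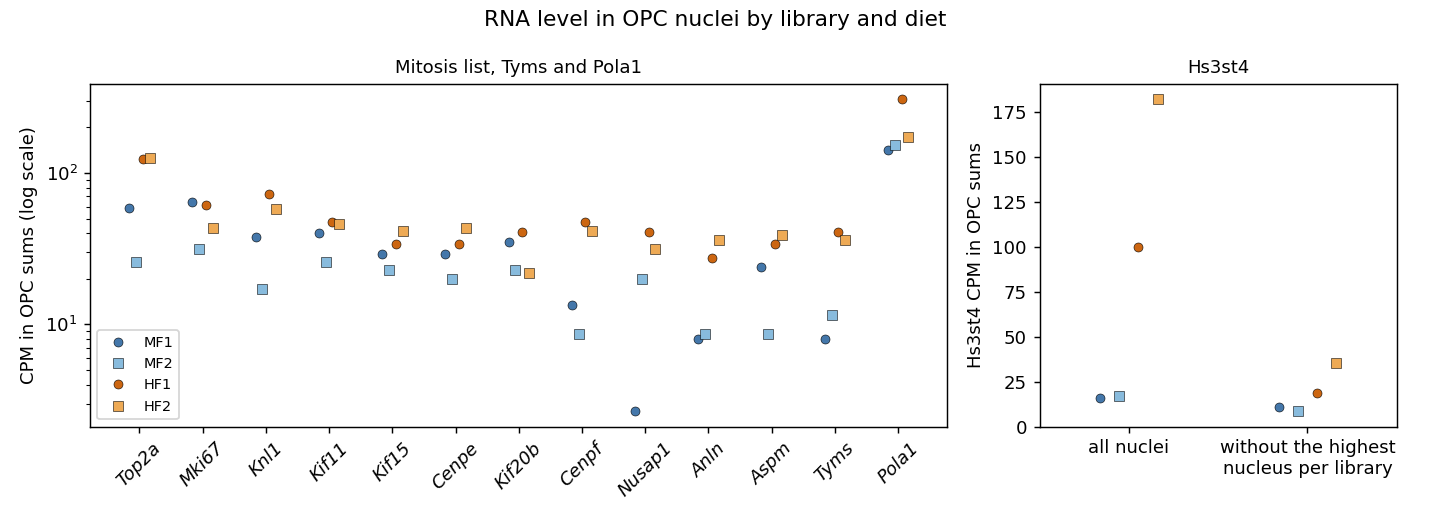
RNA level in CPM in OPC nuclei by library. The left panel (log axis) gives the 11 mitosis genes that passed the filter, Tyms and Pola1, and the right panel (linear axis) gives Hs3st4 over all members and without the highest nucleus of each library, where the 4 values were 11.1, 8.77, 18.8 and 35.4 CPM.

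Accessibility by diet was tested in 33628 regions, and 0 (0%) were called by edgeR at an FDR under 0.05, with 1441 at an unadjusted p under 0.05. DESeq2 called 0 as well, with 523 at an unadjusted p under 0.05. At the starts of the OPC markers the log2 differences between HF and MF were -0.25 for Pdgfra, -0.34 for Cspg4, 0.16 for C1ql1 and -0.21 for Lhfpl3. OPC sums held 1331263 to 1803374 ATAC counts per library.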

How the data were processed

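Nuclei of 4 libraries (2 MF, 2 HF) were profiled for RNA and open chromatin with the 10x multiome assay. The authors made the deposited RNA and ATAC counts for each library with cellranger-arc count (Cell Ranger ARC 2.0.1) on mm10, and replicates were not pooled. The RNA counts are UMIs. Of the non-zero ATAC counts 81.1% to 83.1% were even, so 1 fragment mostly gave 2 counts, and peaks were called per library. Retained libraries held 20151562 to 29243072 UMIs.

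Nuclei were kept as stated in the report. The class rules, members and gene lists were chosen with earlier results of these data known. Scrublet was run in scanpy 1.11.5, with scores given and no nucleus removed in the main results. ODC-like and AST-like nuclei needed 3 of 6 own markers, and EXC-like nuclei at least 3 UMIs of Slc17a7. UMIs and ATAC counts were summed per library and class and tested with edgeR 4.0.16 (quasi-likelihood test, TMM, filterByExpr, Benjamini-Hochberg FDR under 0.05, and 1.2-fold for genes). Class tests had library as a block. The diet fits were also run on simulated counts, and the outcome is not used here. Overlapping peaks were merged to 253748 regions, of which the 154785 with a peak in all 4 libraries were used. Regions within 1 kb of the start of a protein-coding GENCODE transcript were called promoters. Shares were compared by exact permutation.

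Named genes were the rule and label-check genes, the 5 smallest p-values in each direction by diet, from each list up to 8 members with the highest level in OPC nuclei and any with an unadjusted p under 0.05, and the 15 genes most selective for OPC. Named regions were those over gene starts and the 5 smallest p-values in each direction of a class comparison. Genes followed in the mitotic nuclei, Nfia and other examples were chosen after their values were seen. Alternatives were DESeq2 1.42.0, RLE scaling, other filters, FDR limits and marker numbers, leaving out doublets or each library, and the replicate number as a block.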

Additional observations from a re-analysis of the deposited data

How the results depend on the processing

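Of genes by diet (1 called), 18 were called with no filter on low counts, 0 with at least 4 of 8 markers, 0 without nuclei over the doublet score, and 4 to 19 when 1 library was left out (4 without MF1, 12 without MF2, 18 without HF1, 19 without HF2). In such fits the lone library is assumed to vary like the other group. Of regions by diet (0 called), 8 were called among regions with a peak in 2 or more libraries and 1 to 21 with 1 library left out, 21 of them without MF2. Of regions against COP-like nuclei (3980 called), 2366 were called at an FDR of 0.01, 2379 by DESeq2 and 2634 to 3249 with 1 library left out, the lowest without HF1. The causes were not tested, other than the stricter limit and fewer samples. The counts against ODC-like and AST-like nuclei stayed within 1.5 times of 17392 and 17732.

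The diet difference in the OPC share of retained nuclei (0.151 percentage points) was -0.0327 with at least 4 of 8 markers and ranged from -0.106 to 0.407 with 1 library left out, so its direction was not stable. With 1 library left out, that in the share of OPC nuclei with mitotic genes ranged from 5.99 to 9.08 percentage points and that in COP nuclei per 100 OPC nuclei from -31.8 to -0.263.

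The replicate numbers are shared by the labels, and the labels do not say what an equal number shares. Over 2 pairs the deviations in OPC nuclei correlated at 0.17 across 6772 genes. Some library-wide values did run with the number: the summed ribosomal protein RNA of OPC nuclei was 13361 CPM in MF1 and 15146 CPM in HF1 against 9604 CPM in MF2 and 7769 CPM in HF2, number 1 was higher in both diets in the other classes too, and peaks were fewer in number 1 (188533 and 191263 against 217635 and 211711). With the replicate block 0 genes and 1 region were called by diet, the value of Hs3st4 by diet in OPC had an FDR of 0.616 in edgeR, and the OPC share difference was 0.151.

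For 25 genes by diet (the 5 smallest p-values in each direction and list members with an unadjusted p under 0.05) 257 of 286 fits kept their side of the threshold, 28 passed it newly and 1 lost it. Hs3st4 also left the filter in 2 other settings, given in the report, and the other named genes were not refitted. For the named regions 677 of 714 kept it and 37 lost it, and 0 changed direction. The 2 libraries a diet and 349320 to 439401 UMIs per OPC sum limit the precision.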
